A study of Homo sapiens with 10 samples.

Results

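The ovarian cancer line OVKATE was compared with the ovarian cancer lines COV362 and COV504, each sequenced as 1 long-read RNA library on a PromethION nanopore instrument. Genes and transcript shares were described where OVKATE lay beyond both COV lines, that is, above the higher or below the lower of them. The 2 PromethION libraries of a further ovarian cancer line, IGROV-1, gave the replicate background, so 5 of the 10 libraries of the series carry the comparison. All are established human ovarian cancer cell lines, and the labels give for each no more than the line, the instrument and the replicate number, with no treatment or genotype. RNA was extracted with the same column kit and libraries were made with the same ligation kit, with end repair lengthened to 30 min. Each of OVKATE, COV362 and COV504 is 1 library of 1 culture as far as the labels say, so nothing measures how far these lines vary between cultures. The other PromethION libraries, 1 each of OVMANA, OVTOKO and SK-OV-3, are given where they place a value.

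Most ovarian carcinomas are epithelial and keep features of the Müllerian epithelium from which they arise, such as the transcription factor PAX8. Epithelial cells are held together by cadherin and claudin junctions and rest on keratin filaments. Carcinoma cells can instead carry genes of mesenchymal cells, such as vimentin and fibronectin. Interferons raise a common set of antiviral genes through transcription factors that bind a short DNA element in their promoters. Cultured carcinoma lines differ in how much of that set they express without added interferon.

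The libraries held 2021865 counts (OVKATE), 2552499 (COV362), 2247659 (COV504) and 2341102 and 2328087 (IGROV-1 replicates 1 and 2). Levels are CPM, counts scaled to a library total of 1000000, not divided by length, so they compare 1 gene between libraries and not genes with each other. A count of 0 allows up to 3 counts, or 1.484 CPM in OVKATE, 1.175 in COV362 and 1.335 in COV504. Mitochondrial ribosomal RNA took 1.78% of the counts of OVKATE, 3.08% and 3.31% of those of the COV lines and 9.13% and 10.9% in IGROV-1. The lineage factor PAX8 was present in all 5 libraries. It stood at 173.6 CPM in OVKATE, 136.7 in COV362 and 91.7 in COV504, and the epithelial adhesion molecule EPCAM at 817.1, 158.3 and 365.3 CPM. In IGROV-1 PAX8 stood at 210.6 and 134.4 CPM, while EPCAM was at 0.854 and 0.430 CPM. Of leukocyte, endothelial, fibroblast and mesothelial markers (5 listed for each, of which 4, 5, 4 and 5 matched), the summed level in OVKATE was 16.3, 2.5, 30.2 and 72.2 CPM, against 3.5 and 5.8, 9.8 and 28, 4.7 and 82.3, and 3.5 and 13.3 CPM in COV362 and COV504. In OVKATE the leukocyte markers PTPRC and CD3E were at 0, while CD14 stood at 3.96 CPM against 3.53 and 4, and LYZ at 12.4 against 0 and 1.33 (not called). The markers CDH5, KDR, CLDN5, DCN, LUM, PDGFRB, CALB2, DES and ITLN1 were at 0 as well, with PECAM1 at 1.98 CPM, VWF at 0.495, COL1A1 at 30.2, LRRN4 at 3.46 and UPK3B at 68.7. The part of such cells in the results was not tested.

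OVKATE differed from both COV lines in 1751 of 13030 tested genes, 924 higher and 827 lower. A gene was called when both differences had the same sign and the larger of the 2 p-values, adjusted over all genes, was under 0.05 (edgeR quasi-likelihood test, Benjamini-Hochberg). That is 13.4% of tested genes in either direction, 7.09% higher and 6.35% lower. The nearer of the 2 log2 differences had a median size of 1.69 among genes called higher and 1.60 among those called lower, with a range of 0.62 to 15.30 over all called genes. Among called genes the IGROV-1 libraries differed from each other by a median of 0.16 on the log2(CPM + 1) scale, and COV362 from COV504 by 0.49. Over all tested genes these medians were 0.21 and 0.62. The rule for a call favours small gaps in both pairs, so the values among called genes are not an independent background. Only IGROV-1 has replicates, on each instrument 2, so they set the spread used in the test (2 residual degrees of freedom), and the lines with 1 library are taken to have the same spread. Without the first IGROV-1 MinION library 0 genes were called by the edgeR test, although 2965 had an unadjusted p under 0.05 against both lines, and DESeq2's Wald test on all libraries called 302. Without the second MinION library the count was 468.

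Scaling decided part of the balance between directions. The trimmed mean (TMM) factor of OVKATE was 1.193, against 0.939 and 1.021 in the COV lines. With library totals in place of TMM the median gene moved up by 0.34 (against COV362) and 0.22 (against COV504) on the log2 scale, and 1978 genes were called, 1400 higher and 578 lower. On plain CPM 6073 tested genes (46.6%) were above both COV lines and 3341 (25.6%) below both. Differences on the log2 scale are TMM-scaled unless another scale is named, and CPM values are not.

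By size alone, 1751 of 11758 genes with at least 5 CPM in any of the 3 libraries lay at least 2-fold above both COV lines on log2(CPM + 1) (14.9%), by coincidence the same number as the genes called, and 850 at least 2-fold below both (7.23%). At 8-fold the numbers were 213 and 107. Between the IGROV-1 replicates 108 and 86 of 9695 genes differed 2-fold in either direction (1.11% and 0.887%), and none differed 8-fold. COV504 lay 2-fold above COV362 in 1990 and below it in 1371 of 10868 genes (18.3% and 12.6%). Of the genes called higher, 768 of 924 were also above all 5 other PromethION libraries on plain CPM. Of those called lower, 403 of 827 were below all of them. On that scale 46.6% of all tested genes were above both COV lines and 25.6% below both, so the 2 counts do not compare. The same counts over all tested genes were not made.

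**Figure D1:**
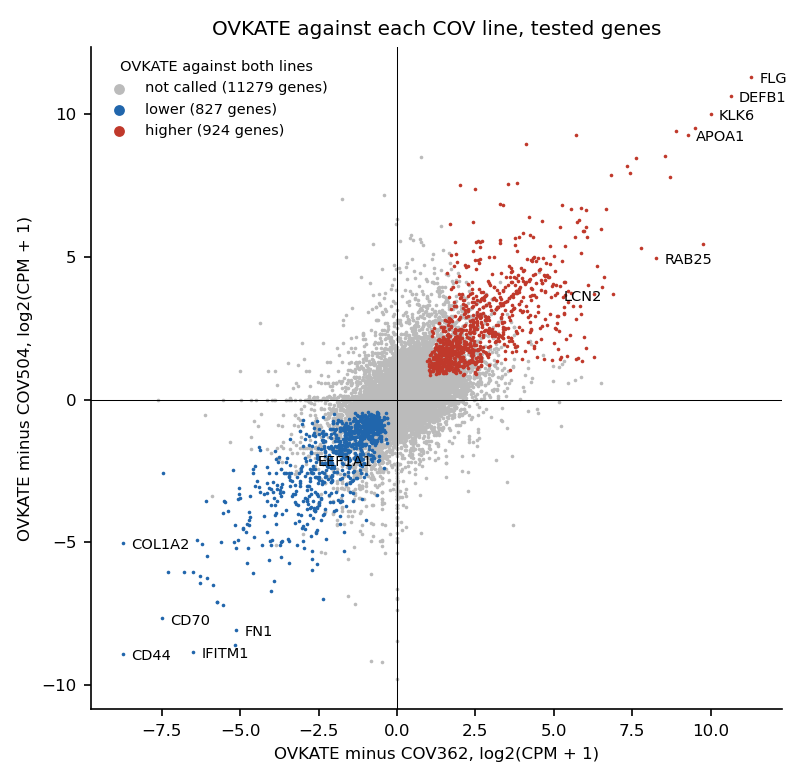
Difference of OVKATE from COV362 (x axis) and from COV504 (y axis) on log2(CPM + 1), 1 point per tested gene, 1 library per line. Red and blue points are the 924 genes called higher and the 827 called lower than both lines, and they lie in the upper right and lower left, with FLG, DEFB1 and KLK6 at one end and CD44 at the other.

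Among the genes furthest above both COV lines were epidermal and secreted products. FLG, which encodes filaggrin, a keratin-bundling protein of the outer epidermis (1:152302175-152325203), stood at 2503.1 CPM in OVKATE and at 0 in both COV lines. In IGROV-1 it was at 0.854 and 0 CPM, and in OVMANA and OVTOKO at 10.7 and 11.6 CPM. Against the limit of 3 counts it was at least 1875-fold higher in OVKATE than in either COV line (adjusted p = 2.9e-05, edgeR). DEFB1, beta-defensin 1, an antimicrobial peptide of epithelia (8:6870575-6878022), stood at 1589.1 CPM in OVKATE and 0 in COV362, COV504 and both IGROV-1 libraries, and was at least 1190-fold higher (adjusted p = 2.3e-05, edgeR). OVMANA, at 1504.7 CPM, had DEFB1 at nearly the level of OVKATE. APOA1, the main protein of high-density lipoprotein, stood at 619.7 CPM in OVKATE, 0 in both COV lines and 1.71 and 1.72 CPM in IGROV-1, a difference of at least 464-fold.

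Kallikreins, secreted serine proteases encoded side by side on chromosome 19, formed a group of their own. KLK6 stood at 1027.3 CPM in OVKATE, KLK7 at 728.0, KLK5 at 369.5 and KLK11 at 99.9, each with 0 counts in both COV lines, which makes them at least 769-, 545-, 277- and 74.8-fold higher. KLK10 stood at 118.2 CPM in OVKATE, 0.784 in COV362 and 1.33 in COV504. The identifier that joins KLK8, KLK9 and AC011473.4 stood at 241.4, 0.392 and 0 CPM. All 6 kallikrein identifiers tested were called higher, and together they held 2584.3 CPM in OVKATE against 1.2 and 1.3 in the COV lines and 0.0 to 1.0 in the other 5 PromethION libraries. The family is similar in sequence and was looked at as a whole after its values were seen. Neighbouring members may share reads.

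Other genes were named by the same rule. STEAP4, a metalloreductase, stood at 64.3 CPM, the synaptotagmin SYT8 at 59.4 and UBE2QL1, a ubiquitin-conjugating enzyme, at 50.4, all with 0 in both COV lines and at least 48.2-, 44.5- and 37.8-fold higher. SERPINA5, the protein C inhibitor, stood at 415.0 CPM in OVKATE, 0 in COV362 and 0.890 in COV504, a ratio of 466 to the latter whose counting interval runs from 129 to 3857. IGROV-1 had 60.7 and 46.8 CPM of it. FOLR3, a secreted folate receptor, stood at 348.2 CPM in OVKATE, 0.784 in COV362 and 0 in COV504, and at 262.9 CPM in OVMANA. Its ratio to COV362 was 444 (123 to 3677). In all, 44 genes called higher had 0 counts in both COV lines.

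CD44, the hyaluronan receptor of the cell surface (11:35138870-35232402), lay furthest below both, among genes with at least 50 CPM in both COV lines. It had 0 counts in OVKATE against 426.6 CPM in COV362 and 480.1 in COV504, and was at least 288-fold lower (adjusted p = 0.0011, edgeR). IGROV-1 had 22.2 and 52.8 CPM, OVTOKO and SK-OV-3 had 657.3 and 634.6 CPM, and OVMANA had 0. CD70, a ligand of the tumour necrosis factor family, had 0 counts in OVKATE, 180.2 and 201.5 CPM in the COV lines and 0.427 and 0 CPM in IGROV-1. HMGA2, a chromatin protein of embryonic tissue, had 0 counts in OVKATE against 109.3 and 64.1 CPM in the COV lines, 401.1 and 438.1 in IGROV-1 and 67.3 to 72.4 CPM in the other 3 lines, so OVKATE was the sole line here without a count. TNC (tenascin C), SPOCK1 (a matrix proteoglycan), CRISPLD1, OAS2 and HOXB2 also had 0 counts, with bounds of 35.6- to 48.3-fold. DPYSL3 stood at 1.48 CPM against 192.4 and 210.9, the gelatinase MMP2 at 0.495 against 68.2 and 216.2, and SMR3B at 0.495 against 78.4 and 203.3 CPM. In all, 94 genes called lower had 0 counts in OVKATE.

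**Figure D2:**
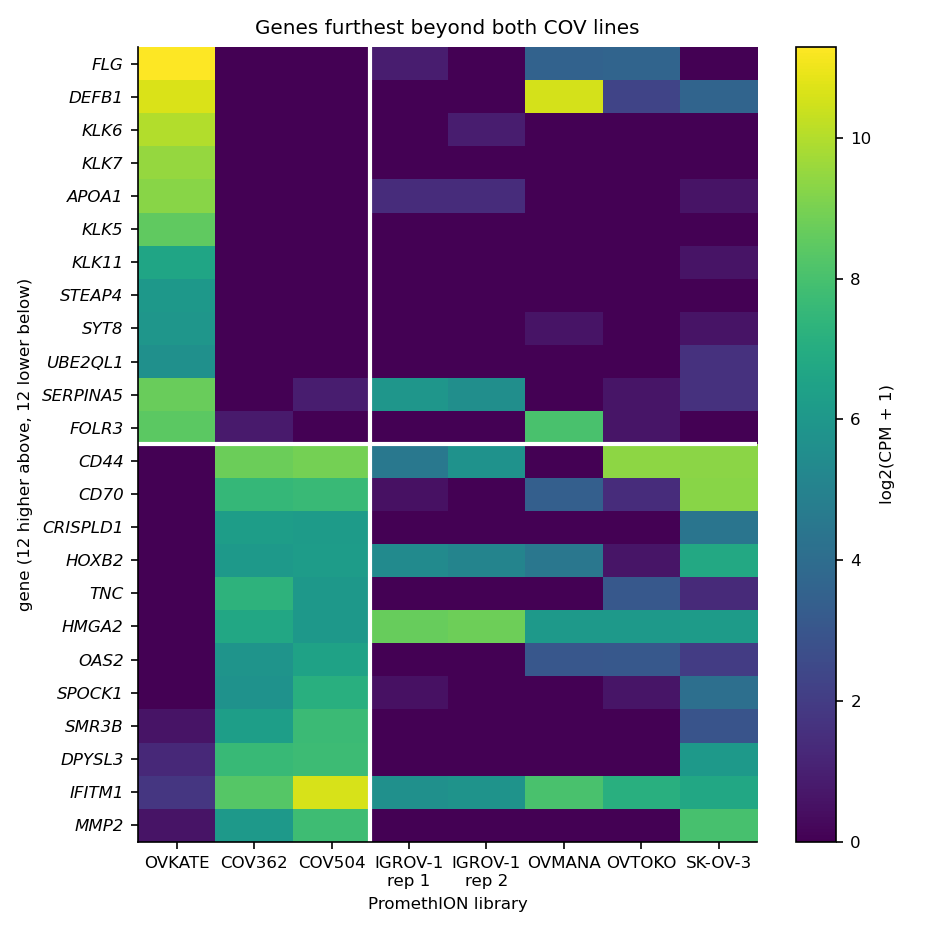
Level of the 12 genes called higher and the 12 called lower that lay furthest beyond both COV lines, in the 8 PromethION libraries, as log2(CPM + 1) (colour). The upper 12 are bright in OVKATE and dark in COV362 and COV504, and the lower 12 the reverse; DEFB1 and FOLR3 are also bright in OVMANA, and CD44 in OVTOKO and SK-OV-3.

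Epithelial genes were higher in OVKATE. Of 26 tested genes of epithelial identity (28 listed), 13 were called higher, 1 lower and 12 not called, where 7.09% of all genes were called higher. With the PromethION libraries alone 7 were called higher, with DESeq2's Wald test or without the second MinION library 5, and without the first MinION library 0. Their median log2 difference was 2.98 against COV362 and 1.48 against COV504, where the median of all genes was 0.00 in both. RAB25, a trafficking GTPase of epithelia, stood at 307.1 CPM in OVKATE, 0 in COV362, 8.90 in COV504 and 0 in both IGROV-1 libraries, 34.5-fold above the higher COV line (adjusted p = 0.00039, edgeR). The polarity protein CRB3 stood at 77.2, 3.53 and 7.12 CPM, and the sorting adaptor AP1M2 at 347.7, 5.09 and 34.7 CPM. OVKATE was above both COV lines in all 3. CDH1 (E-cadherin), the adhesion molecule of epithelial junctions, stood at 150.9 CPM against 1.57 and 59.2, and KRT7, a keratin of simple epithelia, at 1693.5 against 419.6 and 858.2. CLDN3, CLDN7, KRT19, ESRP1, OVOL2, SPINT1 and PRSS8 were called higher as well. Simple keratins did not all go the same way: KRT8 stood at 856.1 CPM between 498.3 and 3273.6, and KRT18 at 645.4 between 569.6 and 4627. EPCAM, at 817.1 CPM above 158.3 and 365.3, was not called. MUC1, the transmembrane mucin, was called lower, at 9.40 CPM against 211.6 and 34.7.

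No tested mesenchymal gene was called higher, and 9 of 24 were called lower, where 6.35% of all genes were. With the PromethION libraries alone, with DESeq2's Wald test or without the second MinION library 5 were called lower, and without the first MinION library 0. The median differences were -2.22 and -4.89. FN1 (fibronectin), the matrix glycoprotein, had 0 counts in OVKATE against 34.1 and 265.6 CPM, at least 23.0-fold lower. COL1A2, a chain of type I collagen, had 0 counts against 429.4 and 31.6 CPM. The transcription factors ZEB1 and TWIST2, which repress epithelial genes or act in mesenchymal development, had 0 counts in OVKATE against 13.7 and 15.6 CPM and against 13.7 and 12 CPM. VIM (vimentin), the intermediate filament of mesenchymal cells, was still at 351.2 CPM in OVKATE against 2637 and 808.4 (adjusted p = 0.0026, edgeR) and 505.3 and 457.5 in IGROV-1. TWIST1, AXL, CAV1 and COL5A1 were also called lower. N-cadherin (CDH2), at 92.0 CPM against 105.0 and 174.0, was not called, nor was SPARC, at 843.3 against 312.6 and 510.3 CPM. Of the 26 listed genes, 12 had 0 counts in OVKATE, 3 in COV362, 1 in COV504 and 12 and 13 in IGROV-1. Of the fibroblast markers, which could move with this list, COL1A1 (also on it) stood at 30.2 CPM between 4.31 and 81.4, and DCN at 0 in all 3 lines.

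The ovarian list holds factors of the Müllerian lineage and surface or secreted antigens of ovarian tumours. Of 23 tested members 10 were called higher, 2 lower (MUC1 and SPON1) and 11 not called, where 7.09% and 6.35% of all genes were called higher and lower. Among the 10 are KLK6, KLK7 and KLK11 of the kallikrein group above, so these calls repeat that result. With the PromethION libraries alone 9 were called higher, without the second MinION library 7, with DESeq2's Wald test 6 and without the first MinION library 0. FOLR1, the alpha folate receptor (11:72189558-72196323), stood at 2174.7 CPM in OVKATE, 18.4 in COV362, 8.45 in COV504 and 230.2 and 234.5 in IGROV-1, 118-fold above the higher COV line (adjusted p = 1.7e-05, edgeR). It is related to FOLR3, which was at 0 in both IGROV-1 libraries, and the split of reads between the 2 genes was not tested. WT1, a zinc-finger factor used to recognise serous ovarian tumours, stood at 76.2 CPM in OVKATE and at 0.392 and 0 in the COV lines, a ratio of 194 to COV362 with a counting interval of 34.4 to 7728, and was at 0 in the other 5 PromethION libraries. Mesothelin (MSLN) stood at 309.6 CPM against 83.1 and 16.9, WFDC2 (HE4) at 1013.4 against 284.4 and 95.2, MUC16 (CA125) at 57.4 against 17.2 and 11.6, and CRABP2, a retinoic acid carrier, at 970.4 against 60.3 and 49.4. PAX8 and SOX17, the lineage factors, were highest in OVKATE of the 3 lines but not called. UPK3B, listed as mesothelial, was called higher as well, at 68.7 CPM against 2.35 and 4.45, while CALB2, DES and ITLN1 were at 0 in OVKATE and LRRN4 at 3.46 CPM.

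**Figure D3:**
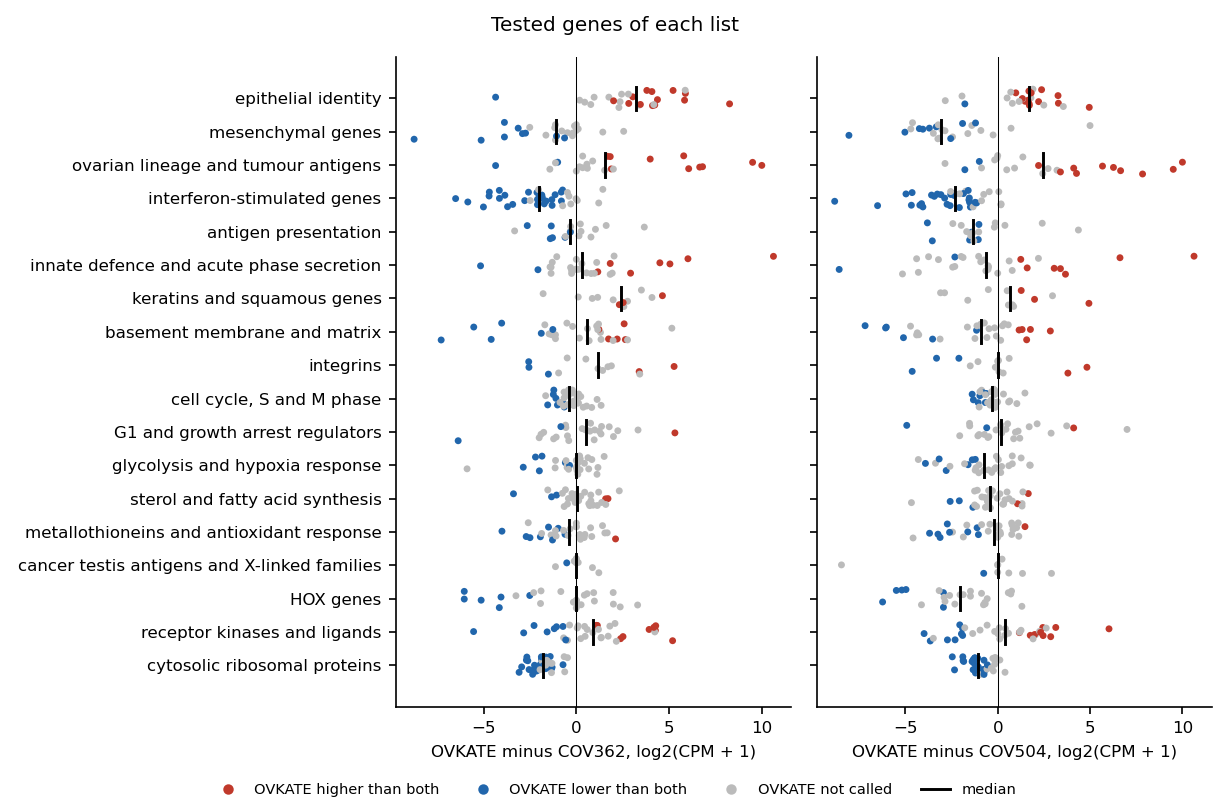
Difference of OVKATE from COV362 (left) and COV504 (right) on log2(CPM + 1) for the tested genes of each list with at least 5 of them; points are genes (red called higher, blue called lower, grey not called) and black bars the median. The medians of the interferon-stimulated and ribosomal protein lists lie left of 0 in both panels, and that of the epithelial list right of it.

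Interferon-stimulated genes were lower in OVKATE. Of 37 tested (40 listed), 27 were called lower, none higher and 10 were not called, where 6.35% of all genes were called lower. The median differences were -2.40 and -2.59. The summed level of the list was 3423.6 CPM in OVKATE, 7574.9 in COV362, 12220.3 in COV504 and 1389.9 and 1482.3 in IGROV-1. OVKATE thus lay below the COV lines and above IGROV-1, where 14 and 17 of the 38 matched genes had 0 counts. With library totals 25 were called lower, with the PromethION libraries alone 18, without the second MinION library 14, with DESeq2's Wald test 11 and without the first MinION library 0.

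The DNA element that interferon-activated factors bind was looked for in the promoters of the list, in the RefSeq table on GRCh38.p14. It was searched as 2 copies of TTTC separated by any 2 bases, or of GAAA for the other strand, and the windows ran from 250 bases before to 50 bases after the start site. Of 31 list genes matched, 22 held it (71.0%), against 1255 of all 35116 promoters (3.57%). A list gene was counted when any of its promoters held the element, and some have several. The promoters of the whole table were counted singly, so the 2 shares are not like for like. The element was sought in the list genes in the same per-gene way below. Per gene, it was found in 15 of the 20 matched genes called lower (75.0%) and in 7 of the 9 tested but not called (77.8%). The stretches below are shown because they belong to the 5 genes with the largest differences among those that hold the element before the start site, each with the match nearest the start site and 20 bases on either side, in the direction of transcription and with the element in capitals.
IFITM1, chr11:313980-314029, plus strand: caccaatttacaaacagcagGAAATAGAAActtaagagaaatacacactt
DDX60, chr4:168318776-168318825, minus strand: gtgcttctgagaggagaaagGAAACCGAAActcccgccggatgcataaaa
IFI44L, chr1:78620355-78620404, plus strand: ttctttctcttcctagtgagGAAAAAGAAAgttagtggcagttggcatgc
HERC5, chr4:88457025-88457074, plus strand: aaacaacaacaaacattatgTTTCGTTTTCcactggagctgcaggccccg
IFIT1, chr10:89392500-89392549, plus strand: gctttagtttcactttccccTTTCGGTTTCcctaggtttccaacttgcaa

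IFITM1, a membrane protein that blocks virus entry, stood at 2.47 CPM in OVKATE, 315.4 in COV362, 1578.1 in COV504 and 49.5 and 54.6 in IGROV-1, 128-fold below the lower COV line (adjusted p = 1.9e-05, edgeR). All 7 other PromethION libraries were above OVKATE for this gene. That did not hold for every member called lower. MX1 stood at 25.2 CPM in OVKATE, below COV362 (105), COV504 (130.8) and OVMANA (28.9). It was at 1.73 CPM in OVTOKO, 5.06 in SK-OV-3 and 0.427 and 0.43 in IGROV-1. OAS2, an enzyme that senses double-stranded RNA, had 0 counts in OVKATE against 56.8 and 89.9 CPM, at least 38.3-fold lower, and MX2 and XAF1 had 0 counts against 9.79 and 30.3 and against 5.88 and 15.6 CPM. DDX60 stood at 0.989 CPM against 50.9 and 36.0, IFI44L at 3.46 against 78.0 and 109.9, and HERC5, the ligase of the ubiquitin-like protein ISG15, at 0.989 against 63.1 and 20.5 CPM. IFIT1, which binds foreign RNA caps, stood at 11.4 CPM against 319.3 and 215.3, 18.9-fold lower, and at 20.5 and 15.9 in IGROV-1. The difference was smaller for ISG15 itself, at 442.7 CPM against 774.1 and 978.4. IFI27 stood at 1268.6 CPM between 1222.7 and 2144.5 and IFIH1 at 30.7 between 40.7 and 29.4, and neither was called. IFITM2 and IFITM3 are near copies of IFITM1 and were called lower too, at 192.4 and 284.4 CPM.

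In antigen presentation, 6 of 18 tested genes were called lower and none higher, where 6.35% of all genes were called lower. The immunoproteasome subunit PSMB9 stood at 7.42 CPM against 51.7 and 117.0, and PSMB8 at 68.7 against 176.7 and 185.1. HLA-F, CD74, HLA-E and HLA-B were also called lower, while B2M, at 2770.7 CPM between 2323.2 and 7623, and HLA-C were not. HLA genes resemble each other and reads may be split among them. With library totals 4 of the 18 were called lower, and without the MinION libraries in turn 0 and 2.

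Genes of innate defence went both ways, with 7 of 29 called higher and 2 lower, where 7.09% and 6.35% of all genes were. LCN2, an iron-sequestering protein of the acute phase, stood at 1847.8 CPM in OVKATE against 54.8 and 144.1, with 0 in IGROV-1 (adjusted p = 0.00037, edgeR). The mucosal chemokine CCL28 stood at 624.2 CPM against 8.62 and 5.34, complement C3 at 137.5 against 5.09 and 15.6, and CXCL16 at 69.2 against 8.23 and 22.2. CCL2, a chemokine for monocytes, had 0 counts in OVKATE against 34.9 and 383.5 CPM, at least 23.5-fold lower, and the receptor LTBR was called lower. CXCL8, at 9.40 CPM between 7.44 and 138.4, and SLPI, at 647.9 above 168.5 and 420.9, were not called. Of 12 tested keratins and squamous genes, the desmosomal cadherins DSC2 (289.3 CPM against 10.6 and 8.45) and DSG2 (287.4 against 49.0 and 118.3) and the keratin KRT80 (178.5 against 34.9 and 44.0) were called higher, and the other 9 were not called. KRT5, a basal keratin, stood at 10.4 CPM between 0 and 82.8.

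Matrix and adhesion genes were divided. In the matrix list 5 of 29 were called higher and 6 lower, where 7.09% and 6.35% of all genes were. The protease inhibitor TIMP3 stood at 407.5 CPM in OVKATE against 64.3 and 55.6, whereas nidogen (NID1) and fibrillin (FBN1) had 0 counts against 23.1 and 66.3 and against 15.3 and 33.4 CPM. Of 13 integrins, ITGB6, an epithelial integrin subunit, stood at 52.9 CPM against 0.392 and 0.890, and ITGB2, best known from leukocytes, at 99.9 against 8.62 and 6.23, beside the leukocyte markers PTPRC at 0 and LYZ at 12.4 CPM against 0 and 1.33. ITGA5, the fibronectin receptor subunit, was lower at 1.48 CPM against 13.7 and 60.5, as were ITGB5 and ITGA6.

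Among receptor kinases, their ligands and insulin-like growth factor binding proteins, 9 of 35 were called higher and 8 lower, where 7.09% and 6.35% of all genes were. Without the MinION libraries in turn 0 and 3 were called higher and 0 and 4 lower. ERBB4 stood at 64.3 CPM in OVKATE, 0.784 in COV362 and 0 in COV504, a ratio of 82.1 to COV362 (22.3 to 685), and at 35 and 53.3 CPM in IGROV-1. The related receptors ERBB3 (59.8 CPM against 2.35 and 14.2) and EGFR (193.9 against 90.9 and 85.4) and their ligands AREG (55.9 against 1.96 and 9.34) and BTC (51.9 against 8.23 and 6.23) were also called higher. Among other ligands, HBEGF stood at 27.2 CPM against 7.05 and 3.56 and NRG1 at 11.4 against 10.6 and 4.45, and neither was called. ERBB2 stood at 29.7 CPM between 5.88 and 33.4. The collagen receptor DDR2 was lower at 0.495 CPM against 68.6 and 22.7, IGF1R at 2.97 against 27.4 and 48.9, and MET, the receptor for hepatocyte growth factor, at 57.4 against 95.2 and 241.6. With library totals 11 were called higher and 6 lower.

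Of 26 listed regulators of the G1 phase and of growth arrest, 1 was called higher, 2 lower and 23 were not called. Of all genes 7.09% were called higher and 6.35% lower. CDKN1B, which encodes the cyclin-dependent kinase inhibitor p27 (12:12717124-12722371), had 0 counts in OVKATE against 81.9 and 29.4 CPM, at least 19.8-fold lower (adjusted p = 0.00065, edgeR). IGROV-1 had 141.4 and 169.2 CPM and the other 3 lines 41.5 to 55.5, so OVKATE alone had no count of it among these 8 libraries. MYCN was called higher, at 70.2 CPM against 0.784 and 3.11. The kinase CDK4 was called lower, at 146.9 CPM against 262.5 and 222.5. CDKN2A lay between the COV lines, at 127.6 CPM between 434.5 and 0. In the cell cycle list 7 of 32 were called lower and none higher, where 6.35% of all genes were called lower. The 7 include thymidylate synthase TYMS (82.1 CPM against 241.3 and 215.8), MCM7 (91.5 against 186.1 and 191.3) and MKI67 (36.1 against 86.6 and 62.3). The count of 7 depended on scaling: with library totals 3 were called lower and 1 higher. Without the second MinION library 2 were called lower and 0 higher, and without the first 0 and 0.

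Of 25 tested HOX genes, which pattern the body axis, 6 were called lower and none higher, where 6.35% of all genes were called lower. With the PromethION libraries alone, with DESeq2's Wald test or without the second MinION library 4 were called lower. Without the first MinION library 0 were. HOXB2, HOXB3, HOXB4, HOXB5 and HOXB6 had 0 counts in OVKATE. HOXB4 stood at 65.0 and 44.0 CPM in the COV lines and 64.9 and 56.3 in IGROV-1, and HOXB3 at 34.1, 35.6, 40.6 and 46.8 CPM. HOXB7, the next gene of the same cluster, stood at 83.1 CPM in OVKATE, between 69.3 and 134.8, and was not called. The HOXB genes were looked at together after their values were seen.

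With TMM scaling the metabolic lists held more genes called lower than higher. Of 29 genes of glycolysis and the hypoxia response 6 were called lower and none higher, where 6.35% of all genes were called lower. GAPDH stood at 1951.7 CPM against 7045.6 and 5937.7, with 5018.6 and 4427.2 in IGROV-1, and LDHA at 145.9 against 584.1 and 2213.9. PKM (1356.7 CPM between 1170.2 and 3064.5) and PGK1 (748.8 between 552.4 and 1056.2) were not called. With library totals 3 were called higher and 3 lower. In the sterol and fatty acid list the desaturase SCD was lower (82.6 CPM against 874.8 and 497.0), with FADS2 and INSIG1, and the sterol pathway enzymes IDI1 (386.3 against 117.5 and 121.9) and HMGCS1 were higher. These 2 higher and 3 lower of 30 tested are near the shares of all genes (7.09% and 6.35%). In the metallothionein and antioxidant list 8 of 30 were called lower and 1 higher. MT2A stood at 164.7 CPM against 634.3 and 1560.7, transketolase (TKT) at 88.0 against 579.0 and 272.7, and FTH1 (ferritin heavy chain) at 3352.4 against 8165.3 and 22238.7, while GCLM was higher at 76.2 against 16.8 and 26.7. Metallothionein genes are near copies of each other. Of 9 tested cancer testis genes PRAME was called lower, at 109.3 CPM against 156.7 and 185.5, and with library totals it was not.

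Ribosomal protein messages were lower in OVKATE. Of 36 tested, 25 were called lower and none higher, where 6.35% of all genes were called lower, with median differences of -2.17 and -1.29. With library totals 25 were also called lower, with DESeq2's Wald test 23, with the PromethION libraries alone 20, without the second MinION library 17 and without the first 0. RPL13 stood at 665.2 CPM in OVKATE, 3178.5 in COV362, 3663.4 in COV504 and 3447.5 and 3334.1 in IGROV-1, 4.78-fold below the lower COV line (adjusted p = 0.00025, edgeR). RPS12 stood at 525.8, 3345, 2662.8, 3549.6 and 3051.9 CPM, and RPS6 at 830.9, 4106.6, 2982.2, 6325.2 and 4780.3 CPM, so OVKATE was lowest each time. Others lay between the COV lines, such as RPS27, at 313.1 CPM between 778.8 and 237.6. The summed level of the 36 genes was 35305 CPM in OVKATE, 130837 in COV362, 72864 in COV504 and 120617 and 111515 in IGROV-1, with COV504 between OVKATE and COV362. These messages are short, with a median transcript length of 1028 nt. The 1291 shortest tested genes, up to 1228 nt, had median differences of -0.13 and 0.05. The part of length in the result was not tested further. Ribosomal protein genes have many processed pseudogenes that could take reads.

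Transcript levels gave fewer calls than gene levels. Of 20198 transcripts tested, 474 were called higher (2.35%) and 525 lower (2.60%), in 895 genes, of which 852 were also called as genes. This count rested on the MinION libraries: without either of them, or with the PromethION libraries alone, 0 transcripts were called by the edgeR test, with 3038 to 3402 at an unadjusted p under 0.05, and DESeq2's Wald test on all libraries called 252.

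Shares of a gene's counts held by 1 transcript lay at least 20 percentage points above both COV lines for 90 of 14517 transcripts (0.620%) and below both for 73 (0.503%), in genes with at least 50 counts in each of the 3 libraries. The IGROV-1 replicates differed from each other by as much in 95 and 97 of 17328 transcripts (0.548% and 0.560%). COV504 differed from COV362 by as much in 204 and 189 (1.41% and 1.30%). These shares are not like for like. OVKATE had to pass both COV lines, a stricter rule than a gap between 2 libraries. The IGROV-1 genes were also chosen by their counts in IGROV-1. The closeness of the OVKATE and IGROV-1 numbers therefore cannot show whether OVKATE differs more than replicates do. By the test of transcript usage (edgeR, Simes p per gene, larger of the 2 comparisons, with a share gap of at least 10 points), 3 of 4730 genes were called (0.0634%), NDUFS5, ATP5C1 and PFN2. None of the 3 passed with the PromethION libraries alone (adjusted p = 0.14 to 0.15, edgeR) or without either MinION library (0.18 to 0.27).

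Sequences at which the transcripts of these 3 genes differ, in a coding stretch or at a junction, are shown. They come from the GENCODE 29 transcripts and are placed on GRCh38. In PFN2 (minus strand of chromosome 3) the coding part of the last exon is 95 bases in both forms and 63 bases agree, with the other 32 in capitals.
ENST00000239940, chr3:149966492-149966586: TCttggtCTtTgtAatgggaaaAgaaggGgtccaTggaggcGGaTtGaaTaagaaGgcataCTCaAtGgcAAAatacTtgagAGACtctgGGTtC
ENST00000452853, chr3:149966170-149966264: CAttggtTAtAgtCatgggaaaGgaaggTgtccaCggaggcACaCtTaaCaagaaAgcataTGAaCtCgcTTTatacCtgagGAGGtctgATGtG
In ATP5C1 (plus strand of chromosome 10) ENST00000356708 holds an added exon of 37 bases, 7806974 to 7807010, of which 4 are coding, and ENST00000335698 skips it. The last 15 bases of the shared exon are followed in capitals by the first 15 of the next.
ENST00000356708: tggtgctgcagctctGGATTAATGAAAATC
ENST00000335698: tggtgctgcagctctGTAAAGAAGGAAAAT
In NDUFS5 (plus strand of chromosome 1) the first exon of ENST00000372969 is 4 bases longer, in capitals, just before the start codon, and both forms begin their coding sequence at 39028725.
ENST00000372967: cgagcatcggccatgcctttct
ENST00000372969: cgagcatcggGTAGccatgcctttct

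PFN2 encodes profilin 2, an actin-binding protein. Its forms take the different last coding stretches printed above but share the end of the message, at 149964904. ENST00000239940 held 68.9% of 650 counts in OVKATE (95% Wilson interval 65.3 to 72.4%), 12% of 397 in COV362 (9.2 to 15.7%) and 13.6% of 2409 in COV504 (12.3 to 15%). The share was 20.8% and 17.1% in IGROV-1, and from 8.4% in SK-OV-3 to 38.5% in OVTOKO in the other 3 lines. OVKATE was thus the sole library with most of its PFN2 counts on this form (adjusted p = 0.0091 for usage, edgeR). Without either IGROV-1 PromethION library the adjusted p was 0.053 to 0.054.

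ATP5C1 encodes the gamma subunit of mitochondrial ATP synthase, and the form without the added exon is known from heart and skeletal muscle. The form with the exon held 99.4% of 2153 counts in OVKATE (99.0 to 99.7%), 86.5% of 656 in COV362 (83.6 to 88.8%) and 80.6% of 459 in COV504 (76.7 to 84.0%), with 92.9% and 91.5% in IGROV-1 (adjusted p = 6e-04, edgeR). In OVMANA it held 99.0%, and in SK-OV-3 42.6%. The gene itself was called higher, at 1064.9 CPM against 257.0 and 204.2. NDUFS5 encodes a subunit of respiratory complex I. ENST00000372967 held 97.8% of 917 counts in OVKATE (96.7 to 98.6%), 43.8% of 1036 in COV362 (40.8 to 46.9%) and 57.1% of 627 in COV504 (53.2 to 60.9%) (adjusted p = 6e-04, edgeR). In IGROV-1 it held 98.8% and 97.4%, next to OVKATE and apart from the COV lines. Both forms of NDUFS5 differ by the 4 bases printed above alone, and how the estimates depend on so short a difference was not tested.

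**Figure D4:**
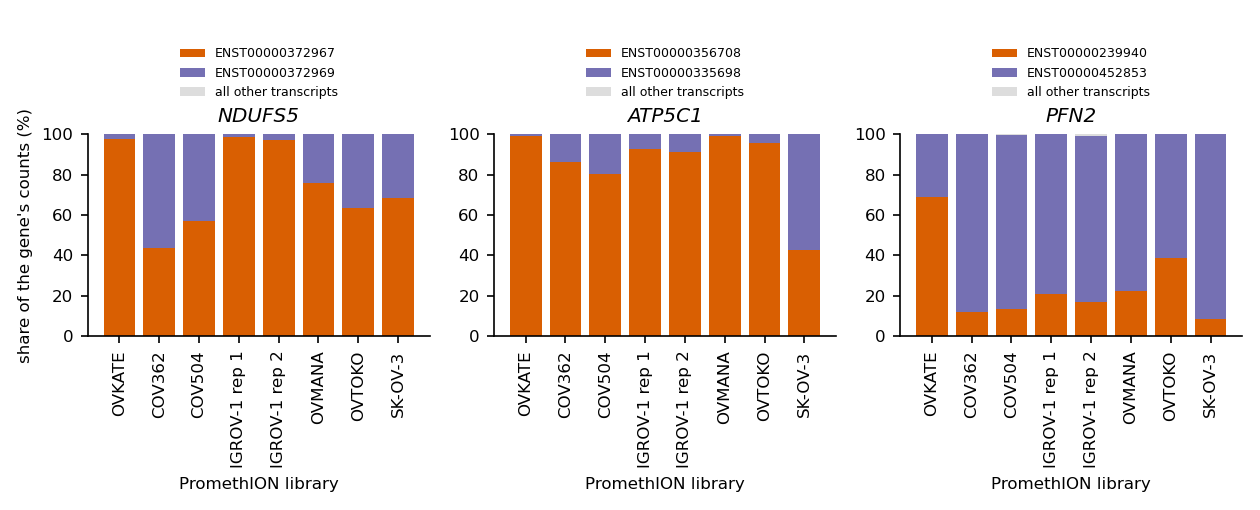
Share of the gene's counts (y axis, percent) held by each transcript of NDUFS5, ATP5C1 and PFN2 in the 8 PromethION libraries (x axis), 1 stacked bar per library. OVKATE is at 97.8%, 99.4% and 68.9% for the orange transcripts, above COV362 and COV504 in each panel, and for NDUFS5 next to both IGROV-1 libraries.

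Wide gaps were also found in genes that were not called, named here after their values were seen. The sterol regulator SREBF1 had 63.2% of 128 counts on ENST00000395757 in OVKATE against 22.4% and 16.4% (adjusted p = 1.0, edgeR), and the tropomyosin gene TPM1 43.0% of 374 counts on ENST00000404484 against 6.2% and 10% (adjusted p = 0.22, edgeR). QSOX1, a sulfhydryl oxidase, had 91.5% of 223 counts on ENST00000367602 against 61.2% and 48.6%, with 63.6% and 68.4% in IGROV-1 (adjusted p = 0.072, edgeR).

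Genes beyond both COV lines were also counted along the chromosomes. In 12688 windows of 15 neighbouring tested genes, the median window had 2 genes at least 2-fold above both COV lines and 1 below both, and no window had more than 4 genes that differed 2-fold between the IGROV-1 replicates. On chromosome 10 from 7750962 to 12835545 all 15 genes of a window were above both lines by that rule, which uses plain CPM. By the test GATA3, TAF3, USP6NL, PROSER2, DHTKD1 and CAMK1D of this window were not called. The called genes include ATP5C1, UPF2, a factor of nonsense-mediated decay (95 CPM against 31.0 and 24.0), CDC123 (208.2 against 79.9 and 81.0) and NUDT5 (284.9 against 115.6 and 66.3). A window from 14838164 to 17715914 had 12 of 15, among them RSU1 (109.3 CPM against 36.0 and 42.3) and STAM (67.3 against 21.5 and 23.1). VIM lies in it and was called lower. Its antisense neighbour VIM-AS1 was called higher, at 10.9 CPM against 0.392 and 0, and without stated use of strand the reads of these neighbours cannot be told apart. The third window, on chromosome 17 from 43766121 to 44353102, had 11. Among them were the growth factor GRN (766.6 CPM against 156.3 and 146.8) and SLC25A39 (555.4 against 205.3 and 162.4). Not every gene above both lines in these 2 windows was called, such as MEIG1 and MPP3.

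The windows with most genes below both COV lines were on chromosomes 10, 6 and 12. From 88273864 to 91514829 on chromosome 10, 10 of 15 were below, among them the neighbouring interferon-stimulated genes IFIT1, IFIT3 and IFIT5. The death receptor FAS (5.94 CPM against 34.1 and 21.4) and the polycomb factor PCGF5 (8.41 against 52.9 and 39.2) were below as well. From 70413308 to 73828316 on chromosome 6, 9 were below, with EEF1A1, the main translation elongation factor, at 2027.3 CPM against 14019.2 and 8773.6. From 7438780 to 11895402 on chromosome 12, 7 were below, among them MAGOHB (26.2 CPM against 114.0 and 89.4).

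Over whole chromosomes, 110 of 642 tested genes of chromosome 6 were called lower (17.1%) and 12 higher (1.87%), with median differences of -0.87 and -0.90, whereas 28 of 156 on chromosome 21 were called higher (17.9%) and 8 lower, with medians of 0.72 and 0.69. The genome-wide shares were 6.35% lower and 7.09% higher. RNA levels do not give copy number, and copy number was not measured here.

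**Figure D5:**
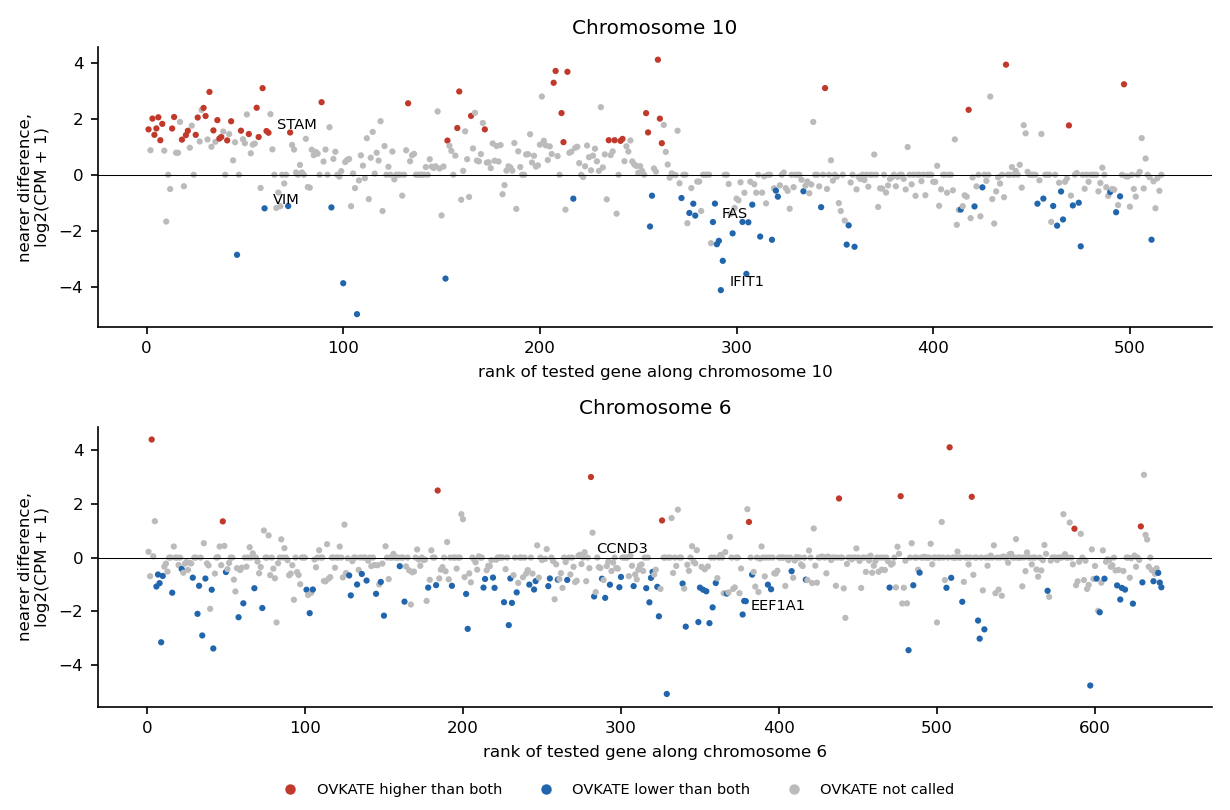
Nearer of the 2 differences of OVKATE from COV362 and COV504 on log2(CPM + 1) (y axis; 0 where OVKATE lies between them) for the tested genes of chromosomes 10 and 6 in their order along the chromosome (x axis, rank). Genes called higher crowd the left end of chromosome 10 up to STAM, genes called lower surround IFIT1, and on chromosome 6 the blue points run along its whole length.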

How the data were processed

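Nanopore reads of total RNA from 10 libraries of 7 lines were mapped with minimap2 2.24-r1122 to GRCh38, per the submitters' processing notes; which tool estimated transcript abundance, and whether it used strand, is not given in the sources used here. For each library the authors deposited estimated counts for 99493 transcripts. They also deposited a column that equals CPM, the count scaled by the library total, within 5.6e-11, with no division by length. Counts were summed over 57110 gene identifiers, of which 722 join neighbouring genes, and rounded for testing. The edgeR 4.0.16 quasi-likelihood test (R 4.3.3) used TMM factors, edgeR's own low-count filter by group and all 10 libraries, so that the IGROV-1 pairs supply the spread, and the 2 comparisons share the OVKATE library. Benjamini-Hochberg adjustment of the larger p ran over all features tested. The labels do not say that IGROV-1 replicates were separate cultures, so p-values measure only the spread between those libraries, which may be technical.

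Transcript usage was tested with edgeR's exon-level test applied to transcripts. Shares carry 95% Wilson intervals, and these, the intervals of ratios and the limit of 3 counts cover counting error only. The fold rule used log2(CPM + 1). The test was also run on simulated counts drawn with the same spread in every library, and no result of that run is given here. DESeq2 1.42.0 was an alternative, and library totals were added as one after the data were seen.

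The comparison, the gene lists and the members named were chosen with earlier results of these data known. Named by rule were the 12 genes called in each direction with the largest nearer difference (single protein-coding or lincRNA genes with at least 50 CPM in OVKATE or in both COV lines), up to 4 called members of each list, up to 8 genes called for usage (3 were called) and 3 windows in each direction. Other list members and window genes were named after their values were seen. Coordinates and transcripts come from GENCODE 29, which held 56144 of 56388 single identifiers, and promoters from RefSeq (GRCh38.p14).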

Additional observations from a re-analysis of the deposited data

How the results depend on the processing

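The calls rest on the spread of 1 line, and their number moved with the libraries that measure it. Of 1751 genes, 999 transcripts and 3 genes for usage, the counts became 724, 0 and 0 with the PromethION libraries alone (3075, 3402 and 142 at an unadjusted p under 0.05, edgeR). Leaving out each IGROV-1 library in turn gave 0 to 2413 genes, 0 to 2226 transcripts and 0 to 2 genes for usage. The lowest values came without the first MinION library for genes (2965 unadjusted) and without either MinION library for transcripts (3211 and 3038) and usage (139 and 135), and without the second MinION library 468 genes were called. DESeq2's Wald test called 302 genes and 252 transcripts. Against COV362 alone 4319 genes, 3708 transcripts and 33 genes for usage were called, and against COV504 alone 4502, 3715 and 36. Without a filter on low counts 44 transcripts were called, and with at least 10 CPM 1679 transcripts and 12 of 1799 genes for usage. IGROV-1 libraries of the same replicate number deviated together between instruments (r = 0.49 over 7848 genes, with 2 pairs, across genes, which are not independent), but the labels do not say what a number shares. With the replicate block 3333 genes, 2982 transcripts and 14 genes for usage were called. By size, 841 genes lay at least 4-fold beyond both COV lines instead of 2601 at 2-fold. Transcript shares at least 20 points beyond both numbered 163 with a gene minimum of 50 counts, 387 with 20 counts and 22 with 200 counts, and 12 lay at least 40 points beyond. Of the 83 genes named by rule none reversed under any setting. That was all but set in advance, because every setting reused the same OVKATE and COV libraries and these genes were chosen by size of difference. Their calls were kept by 83 with DESeq2 size factors, 80 with library totals, 73 with the PromethION libraries alone, 54 with DESeq2's Wald test, 67 without the second MinION library and 0 without the first. The causes of these changes were not tested.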

Other observations

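Beyond the 36 listed ribosomal protein genes, all 76 tested genes with RPL or RPS symbols were looked at after the values were seen. The 76 take in genes of the list of 36, of which 25 were called lower, so part of these calls is the same. Of the 76, 44 were called lower (57.9%), 1 higher and 31 not called, where 6.35% of all genes were called lower and 7.09% higher. Together they held 6.62% of the counts in OVKATE, 21.72% and 12.03% in COV362 and COV504, 20.11% and 18.44% in IGROV-1, 17.18% in OVMANA, 18.66% in OVTOKO and 10.38% in SK-OV-3, so OVKATE was lowest of the 8 PromethION libraries. A set of 19 translation factors and other genes often measured with them was looked at in the same manner. Here 10 were called lower (52.6%) and none higher, where 6.35% and 7.09% of all genes were. Of the 10, NPM1, HNRNPA1 and NAP1L1 are a nucleolar protein, an RNA-binding protein and a histone chaperone. EEF1A1 stood at 2027.3 CPM in OVKATE against 8773.6 to 14019.2 in the COV lines and 11337.4 and 11528.3 in IGROV-1, and TPT1 at 1787 against 3692.9 and 3507.2, while EEF2, at 440.7 against 805.9 and 503.2, was not called.

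The run of higher genes on the short arm of chromosome 10 ended near STAM. Of the 62 tested genes up to it 30 were called higher (48.4%) and 2 lower, with median log2 differences of 1.23 and 1.4. Of all tested genes 7.09% were called higher and 6.35% lower. Of the 38 from STAM to ZEB1 on the same arm 2 were called higher (5.26%) and 3 lower (7.89%), near those shares. Chromosome 14 had 48 of 421 tested genes called higher (11.4%) and 5 lower, with medians of 0.29 and 0.70. These stretches were chosen after their values were seen, and what they share besides position was not tested.

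Some genes separated the COV lines from each other with OVKATE between them. S100A4, a calcium-binding protein, stood at 1286.4 CPM in OVKATE, 4010.6 in COV362 and 39.2 in COV504, and the homeobox gene EMX2 at 49.5, 134.8 and 4.45 CPM.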
